A study of Mus musculus with 17 samples.

Results

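Type I interferon response genes were followed in a mouse podocyte line grown on 3 silicone surfaces. The group holds 39 genes out of 56748 in the count table. It was given as a list of symbols, and each symbol was matched to an Ensembl gene identifier. The list has 4 STAT and IRF transcription factors, 6 nucleic acid sensors and cofactors, and 29 effectors. Of the 39, 36 had enough reads to be tested among 15196 genes, and Oasl1, Mx1 and Rsad2 did not.

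All libraries came from E11, an established mouse podocyte cell line, so every group shares a single line and no animal variation is measured. Podocytes are the epithelial cells whose foot processes wrap the glomerular capillaries. The NT group (n = 5) grew on polydimethylsiloxane, a silicone, with no topography. The RT group (n = 6) grew on the same polymer with round topography, the textured control that is not fractal. The HF group (n = 6) grew on high fractal topography, a pattern traced from sections of healthy glomeruli. No drug, interferon or genetic change is named for any group. Time in culture and what separates replicates of a group are not given in the sources used here, so p-values reflect only how far these libraries scatter, and that scatter may be technical.

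Type I interferons bind the receptor pair Ifnar1 and Ifnar2, and the kinases Jak1 and Tyk2 then phosphorylate STAT proteins such as Stat2. With Irf9 these form a complex that binds interferon-stimulated response elements in promoters and turns on the response genes. Among the products are RNA sensors, which detect viral nucleic acid, and effectors that degrade RNA, block translation or modify proteins. Most cells keep a low basal level of this programme without infection.

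Total counts ran from 14.9 to 18.6 M in NT, 15.7 to 24.1 M in RT and 16.2 to 17.8 M in HF. Levels are given as CPM, counts scaled to a common library total by trimmed means, and per kb of exon where genes are compared with each other. The podocyte label was checked on 10 podocyte markers. Their summed level lay between 1246 and 1382 CPM over all 17 libraries. Ptpro, a podocyte membrane phosphatase, did not exceed 0.0579 CPM in any library, so this defining marker was absent or nearly so.

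A single flat-surface library, NT 5, stood apart in these genes, so results against NT are also given without it where that moves them. NT 5 was the highest of all 17 libraries in 30 of the 36 tested members, where 12.5% of all tested genes were highest in NT 5. In such bulk RNA, more cells expressing a gene and more RNA per cell cannot be told apart. The mean deviation of the 36 members from their means over all libraries, on the log2 CPM scale, was -0.09, 0.14, 0.14, 0.03 and 0.75 in NT 1 to NT 5. In RT it ran from -0.17 to -0.03 with none above 0, and in HF from -0.14 to 0.05. NT 5 was thus far above every other library. NT 1 lay among the textured libraries, and NT 4 lay below HF 6, the highest of them. Against the mean of the other 16 libraries, NT 5 was higher in 36 of 36 members, with a median difference of 0.51 on the log2 scale beside 0.0046 over all genes. Among all 15196 genes ranked by this difference, Ifi44 was the first, Oas2 the second, Oas1a the third and Ifit1 the fourth, and 9 of the top 20 were members. Another interferon-stimulated gene, Apol9b, was the fifth, and Oas1g, which shares sequence with Oas1a, the ninth.

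**Figure D1:**
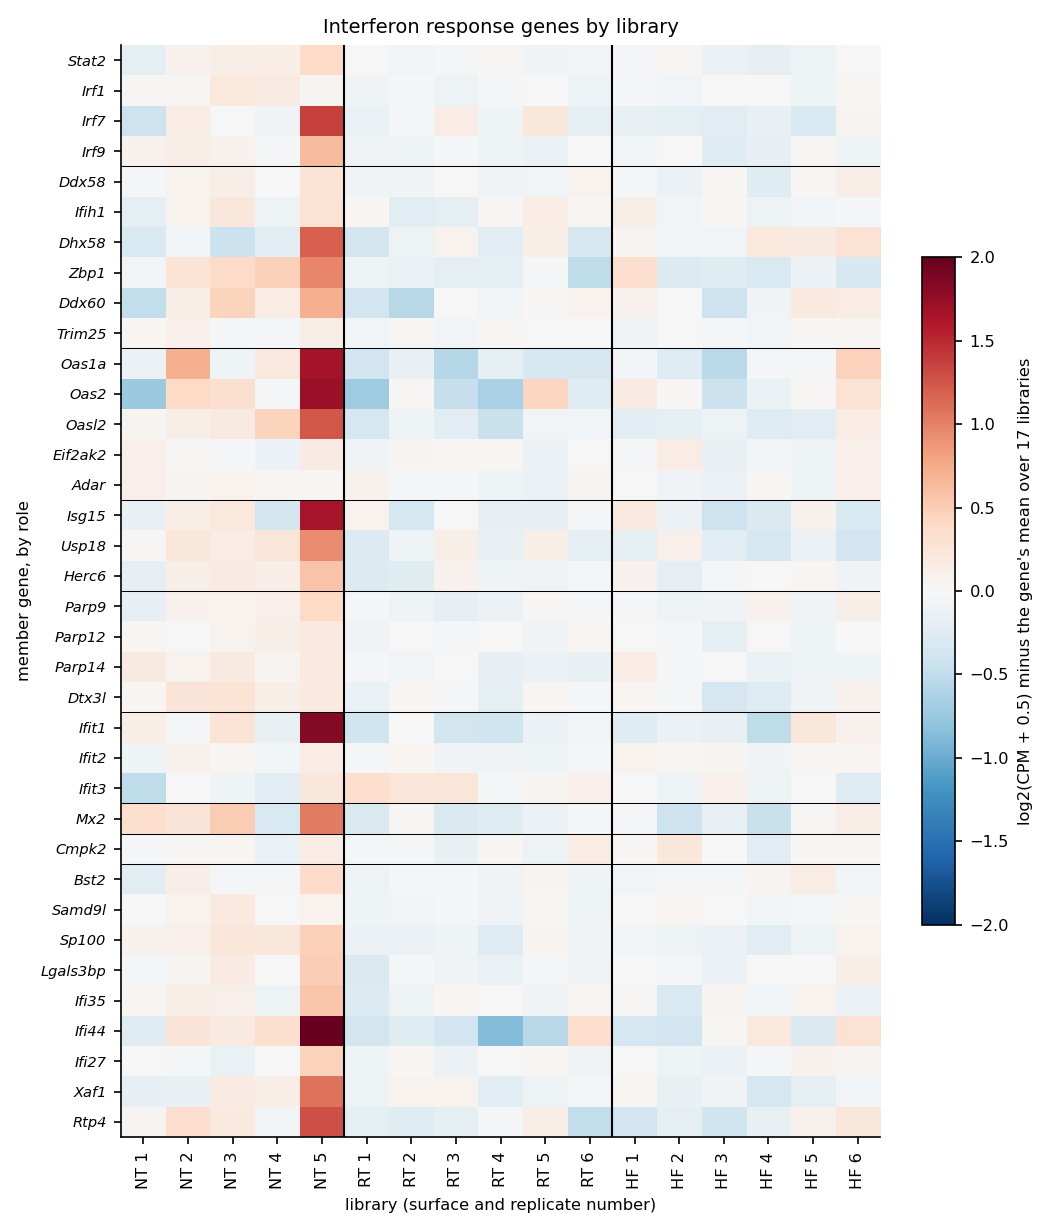
Level of each tested member (rows, by role) in each library (columns), as log2(CPM + 0.5) minus the gene's mean over 17 libraries; vertical lines part the NT, RT and HF groups and horizontal lines the roles. NT 5 is the highest library in 30 of 36 rows.

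**Figure D2:**
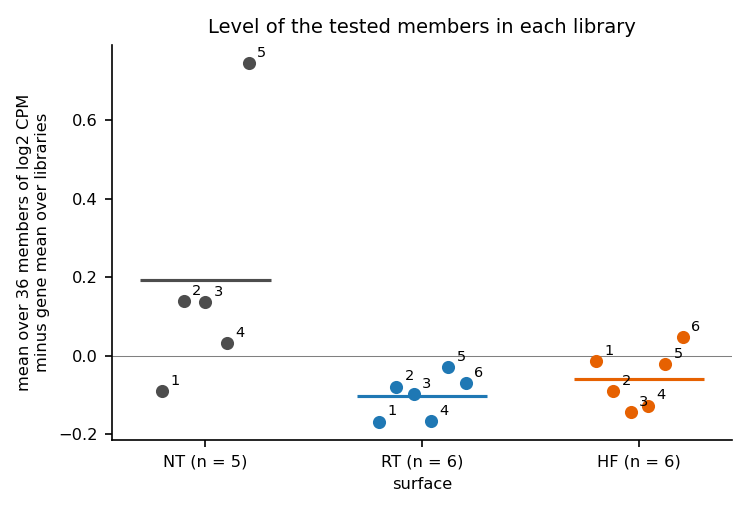
Mean over the 36 tested members of log2 CPM minus the gene mean, per library (points, numbered by replicate), with group means as lines. NT 5 lies at 0.75, and the other 16 libraries lie between -0.17 and 0.14.

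The difference of NT 5 was seen in factors, sensors and effectors. The median difference between NT 5 and the other 16 libraries was 0.54 on the log2 scale for the 4 factors, 0.55 for the 6 sensors and 0.51 for the 26 tested effectors. Single genes ranged from 0.07 to 1.52 among factors, 0.14 to 1.40 among sensors and 0.04 to 2.41 among effectors. Within the effectors it was 1.34 for the double-stranded RNA enzymes and OAS family, 1.04 for the ISG15 system and 0.21 for the PARP and DTX3L group. The 3 untested members were also highest in NT 5, although their counts are few. Oasl1 had 9 counts there and 0.247 CPM or less elsewhere. Mx1 had 11 counts in NT 5 and at most 0.353 CPM in the others, and Rsad2 18 counts and at most 0.699 CPM.

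Genes at a low basal level differed most in NT 5. In the 12 members with the lowest level per kb of exon, the median difference was 1.26 on the log2 scale, in the 12 next 0.59 and in the 12 with the highest level 0.19. Spearman's rho between the level per kb in the other 16 libraries and the difference was -0.71 over 36 genes. These genes are measured in the same libraries and are not independent. The mean of the other 16 libraries also enters the difference with a minus sign, so rho may be negative partly by construction. Ifi44, at 0.234 CPM per kb in the other libraries, was 5.33-fold higher in NT 5. Ifit3, the most abundant member at 77.0 CPM per kb, was 1.18-fold higher. Exceptions included Cmpk2, low at 2.27 CPM per kb and only 1.12-fold higher, and Ifih1, at 1.92 CPM per kb and 1.24-fold higher. In the middle 12, Ifit1, at 3.92 CPM per kb, was 3.98-fold higher and Isg15, at 2.59, was 3.83-fold higher. The relation of level and difference was not computed over all genes.

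**Figure D3:**
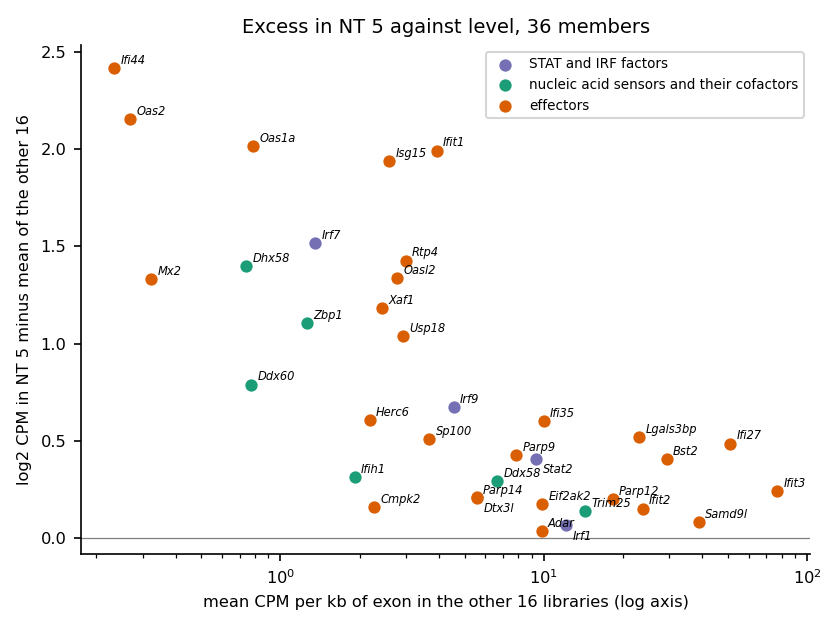
Each point is a tested member, coloured by role: the x axis (log scale) gives its mean CPM per kb of exon in the 16 libraries other than NT 5, and the y axis the log2 CPM in NT 5 minus the mean of the others. All 36 points lie above 0, and the largest values are at low levels.

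Other measures of NT 5 are set beside its interferon genes. Of 10 leukocyte markers, Adgre1, Itgam, Siglech and Cd3e had no count in any library. Ptprc, Itgax and Lyz2 did not exceed 0.186 CPM in any. Itgam overlaps Gm49368 on the same strand over 68.7% of its exonic bases, so its missing count may not show absence. The summed leukocyte list was 41.5 CPM in NT 5, within 38.2 to 43.1 CPM over NT, 47.0 to 59.4 in RT and 41.2 to 55.5 in HF, and nearly all of it was Csf1r. Csf1r overlaps Hmgxb3 on the opposite strand over 15.1% of its exonic bases, and the libraries did not keep strand. Endothelial markers summed to 1.15 CPM or less in every library, and 0 of 5 were tested. In NT 5 the summed podocyte markers (1246 CPM) and the summed proximal tubule markers (440 CPM) were the lowest of the 17 libraries, and the mesangial and fibroblast list was at 458 CPM, within 453 to 500.2 over all libraries. The part of these levels in the difference of NT 5 was not tested. NT 5 had 16.96 M counts, within the range of its group, and 2.12% mitochondrial counts beside 2.09% to 2.47% over all libraries.

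Promoter windows from RefSeq (build GRCm38.p6, 250 bases before to 50 after each start) were found for 29 of the 39 members. The letters of the interferon-stimulated response element, GAAANNGAAA on either strand, occurred in 11 of these, or 37.9%, beside 3.99% of all genes in the same table. The longer form GAAANNGAAACT, which contains the shorter, occurred in 6 members (20.7%) and in 0.303% of all genes. A match describes the letters of the window and no binding was measured. Stretches are shown for the 3 members with a match among the 6 genes that differed most in NT 5, and for Ifit3 and Stat2, which hold the same letters and differed less. All run 5′ to 3′ on the strand of the gene and end before the start site, with the motif on either strand in capitals.
Oas1a: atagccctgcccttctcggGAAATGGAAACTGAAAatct
Ifit1: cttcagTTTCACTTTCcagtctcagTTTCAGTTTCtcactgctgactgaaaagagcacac
Isg15: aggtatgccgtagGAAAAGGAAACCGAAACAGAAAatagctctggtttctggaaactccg
Ifit3: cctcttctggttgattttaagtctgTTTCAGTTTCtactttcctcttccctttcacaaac
Stat2: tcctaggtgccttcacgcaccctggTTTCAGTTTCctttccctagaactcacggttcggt

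These lie at chr5:120907526-120907564 (Oas1a, minus strand), chr19:34640779-34640838 (Ifit1, plus), chr4:156200850-156200909 (Isg15, minus), chr19:34583382-34583441 (Ifit3, plus) and chr10:128270251-128270310 (Stat2, plus). Overlapping copies of the motif run together in Oas1a and Isg15. The 10 tested members with a match had a median difference of 0.41 in NT 5 on the log2 scale, and the 17 tested members with a window but no match 0.51. Ifi44, which differed most, had no match in its window, and Oas2 was not in the table.

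Both textured surfaces were compared with the flat control, to ask how texture of either kind moves these genes. They share the NT libraries, so the 2 comparisons are not independent. In HF, 4 members were lower than in NT (Zbp1, Usp18, Dtx3l and Sp100), 0 were higher and 32 did not pass, by edgeR's quasi-likelihood test at an adjusted p of 0.05. Over all genes tested, 0.829% were lower at that threshold and 2.33% passed in either direction. In RT, 6 members were lower (Irf1, Zbp1, Oas1a, Parp14, Dtx3l and Sp100), 0 were higher and 30 did not pass, with 1.44% of all genes lower and 2.53% higher. The median log2 fold change of the 36 members was -0.20 in HF and -0.24 in RT, beside -0.0025 and -0.0021 over all genes, and it was negative for 34 and 35 members, respectively, beside 51.0% and 50.9% of all genes. At an unadjusted p under 0.05, in either direction, the counts were 20 members in HF and 25 in RT, beside 14.2% and 17.1% of all genes.

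Without NT 5 these medians came to -0.10 in HF and -0.11 in RT. The count of lower members was then 4 in HF (Usp18, Dtx3l, Sp100 and Oasl2), with 1.77% of all genes lower, and 7 in RT (Irf1, Zbp1, Oasl2, Parp14, Dtx3l, Samd9l and Sp100), with 2.34% of all genes lower. Negative fold changes then numbered 30 in HF and 31 in RT, beside 50.8% and 50.9% of all genes. At an unadjusted p under 0.05 there were 12 and 18 members, beside 16.6% and 19.1% of all genes. Other single libraries also moved the counts. In HF against NT the count was 7 without NT 4, 2 without HF 3 and 1 without HF 4. In RT against NT it was 15 without NT 1 and 3 without RT 1 or RT 3. The shares of all genes lower in these fits are not given, so the counts are not read as particular to the members. Calls over all genes moved too. With each library left out in turn, 202 to 604 genes passed in HF against NT and 365 to 806 in RT against NT. In both, the fewest genes passed without NT 3, where 3 members were lower in HF and 4 in RT. Dtx3l and Sp100 passed in both comparisons with and without NT 5.

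**Figure D4:**
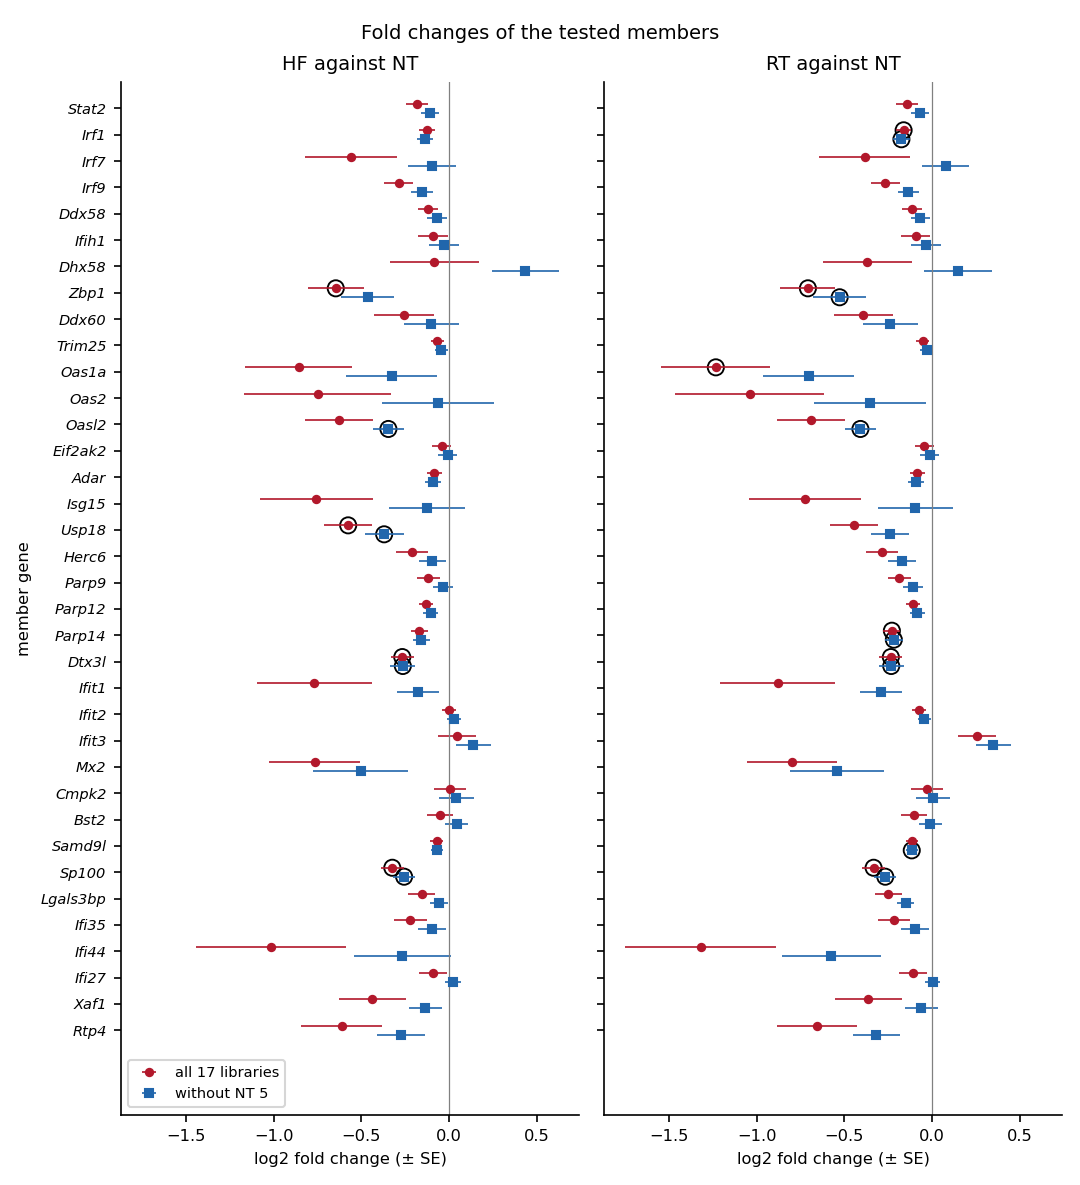
Log2 fold change (point) and SE (bar) of each tested member for HF against NT and RT against NT, with all 17 libraries (red circles) and without NT 5 (blue squares); a black ring marks an adjusted p below 0.05. Without NT 5 the values draw closer to 0 for Ifi44, Isg15, Irf7 and Ifit1 and stay nearly in place for Dtx3l, Parp14 and Irf1.

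Of the 4 factors, 1, Irf1, fell in RT. All 4 fold changes were negative in both comparisons with NT 5 included, and without it that of Irf7 in RT was positive. Irf1, a factor induced by interferons of both types, stood at 49.1, 49.4, 56.3, 54.3 and 50.5 CPM in NT 1 to NT 5. The lowest, median and highest RT values were 44.9, 46.5 and 48.2 CPM, and those of HF 45.4, 47.6 and 49.8 CPM. Every RT library was below every NT library, HF overlapped NT, and NT 5 was not the highest. Irf1 fell by 0.16 ± 0.04 (SE) on the log2 scale in RT (edgeR adjusted p = 0.0308, and 0.0191 without NT 5). That call ended without NT 3, NT 4, RT 1, RT 3, RT 4 or RT 6, with the highest adjusted p at 0.141, with no filter on low counts (0.0502) and with only those 2 groups in the fit (0.0543). In HF the log2 fold change was -0.13 ± 0.04 (SE, adjusted p = 0.145).

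Irf9, the DNA-binding subunit that joins Stat2, had 26.8, 27.7, 26.6, 24.5 and 39.1 CPM in NT 1 to NT 5. RT ran from 23.2 over a median of 23.7 to 25.2 CPM, and HF from 21.3 over 24 to 25.6 CPM. NT 5 stood above all, and NT 4 lay within both textured groups. The log2 fold change was -0.29 ± 0.08 (SE) in HF (edgeR adjusted p = 0.0631) and -0.27 ± 0.08 (SE) in RT (adjusted p = 0.0652). Without NT 5 it was -0.15 and -0.14 (adjusted p = 0.174 and 0.216). With all libraries Irf9 passed in both comparisons by DESeq2 (0.0350 and 0.0413), with no filter (0.0016 and 0.0032) and with the replicate block (0.0196 and 0.0230), and also without NT 4 (0.0253 and 0.0240). Stat2, the STAT subunit of the complex with Irf9, averaged 61.1 ± 8.52 CPM in NT (SD, n = 5), 55.4 ± 1.54 in RT and 54.0 ± 2.80 in HF (SD, n = 6 each), and passed in neither. Its log2 fold change was -0.18 in HF and -0.15 in RT, and without NT 5 -0.11 and -0.07. Irf7, which amplifies interferon production, was at 14.8 CPM in NT 5 and between 3.95 and 6.41 CPM in the other 16 libraries. Its log2 fold change was -0.56 in HF and -0.38 in RT, and without NT 5 -0.10 and 0.08 (edgeR adjusted p = 0.791 and 0.820).

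Among the sensors, Zbp1 was lower on both textured surfaces and the other 5 passed in neither comparison. Zbp1, which senses nucleic acid in the Z form, had 4.39, 5.62, 6.12, 6.59 and 9.49 CPM in NT 1 to NT 5. The RT libraries lay between 3.08 and 4.44 CPM around a median of 4.07, and the HF libraries between 3.56 and 5.90 CPM around 3.75. NT 1 was within RT, and HF 1, the highest of HF, was within NT. Zbp1 fell by 0.71 ± 0.16 (SE) on the log2 scale in RT (edgeR adjusted p = 0.00595) and by 0.65 ± 0.16 in HF (adjusted p = 0.0201). Without NT 5 the RT value was -0.53 (adjusted p = 0.0302) and the HF value -0.46 (adjusted p = 0.0769). The HF call also ended without HF 4 (adjusted p = 0.0623) and with only those 2 groups in the fit (adjusted p = 0.0618).

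The RNA helicases Ddx58 (RIG-I) and Ifih1 (MDA5) and the ubiquitin ligase Trim25 showed small differences. Their log2 fold changes lay between -0.12 and -0.05 in both comparisons, and between -0.07 and -0.03 without NT 5. Dhx58 (LGP2), a regulator of both helicases, had 6.48 CPM in NT 5 and 1.77 to 3.22 CPM in all other libraries. Its log2 fold change in HF was -0.08 with NT 5 and 0.43 without it (adjusted p = 0.930 and 0.227), and in RT -0.37 and 0.15. Ddx60, a helicase linked to RIG-I signalling, had log2 fold changes of -0.25 in HF and -0.39 in RT (adjusted p = 0.552 and 0.234), and without NT 5 -0.10 and -0.24.

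In the OAS family, enzymes that make the oligoadenylate activator of RNase L, Oas1a fell in RT. Its values were 1.42, 2.91, 1.45, 1.88 and 6.08 CPM in NT 1 to NT 5. In RT the lowest, median and highest were 0.897, 1.17 and 1.36 CPM, and in HF 0.933, 1.504 and 2.36 CPM. NT 2 and NT 5 were high, all of RT was below all of NT, and HF overlapped NT. Oas1a fell by 1.23 ± 0.31 (SE) on the log2 scale in RT (edgeR adjusted p = 0.0221), and without NT 5 the value was -0.70 (adjusted p = 0.110). The call also ended without RT 1 or RT 3 (adjusted p = 0.0528 and 0.0588) and by limma voom (0.0696). In HF the value was -0.86 ± 0.31 (SE, adjusted p = 0.160), and without NT 5 -0.33 (adjusted p = 0.573). With no filter on low counts the HF value passed (adjusted p = 0.0128). Of its 100-base windows, 40.9% also occur in Oas1g, so the 2 genes may not be fully told apart.

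Oasl2, an OAS-like protein, had 19.2, 20.0, 20.9, 25.3 and 44.3 CPM in NT 1 to NT 5. RT gave 13.4, 16.5 and 17.8 CPM as lowest, median and highest, and HF 15.3, 16.02 and 20.5 CPM. RT lay wholly below NT, and in HF only HF 6 reached into the NT range. With NT 5 the log2 fold change was -0.63 ± 0.19 (SE) in HF (edgeR adjusted p = 0.120) and -0.69 ± 0.19 in RT (adjusted p = 0.0626). Without NT 5 the change was smaller and its error smaller still: -0.35 ± 0.09 (SE) in HF (adjusted p = 0.0217) and -0.41 ± 0.09 in RT (adjusted p = 0.00448). With all libraries both passed by DESeq2 (0.0344 and 0.0103) and limma voom (0.0449 and 0.0149). The RT value also passed with the replicate block (0.0358) and without NT 1 or NT 2 (0.0402 and 0.0477). Oas2 reached 5.38 CPM in NT 5 and 0.556 to 1.88 CPM elsewhere. Eif2ak2 (PKR, which halts translation on double-stranded RNA) and Adar (which edits it) had log2 fold changes between -0.08 and -0.04 in both comparisons.

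In the ISG15 system, Usp18 fell in HF. Usp18 removes ISG15 from proteins and dampens receptor signalling. It had 8.59, 9.95, 9.34, 10.1 and 16.7 CPM in NT 1 to NT 5. The RT range was 6.91 to 9.20 CPM with a median of 7.74, and the HF range 6.32 to 9.02 CPM with a median of 7.25. NT 5 stood alone at the top, and NT 1 was within both textured ranges. Usp18 fell by 0.57 ± 0.14 (SE) on the log2 scale in HF (edgeR adjusted p = 0.0218), and without NT 5 the value was -0.37 ± 0.11 (adjusted p = 0.0475). The call ended without HF 3 or HF 4 (adjusted p = 0.0513 and 0.0652) and with only those 2 groups in the fit (adjusted p = 0.0669). The RT value was -0.44 ± 0.14 (adjusted p = 0.0631), and without NT 5 -0.24 (adjusted p = 0.210). It passed by DESeq2 (0.0326), with no filter (0.0018), with the replicate block (0.0228) and without NT 1 (0.0250). Isg15, the ubiquitin-like modifier itself, had 7.70 CPM in NT 5 and 1.46 to 2.52 CPM elsewhere, and its log2 fold change in HF was -0.76 with NT 5 and -0.13 without it. Herc6, the main ISG15 ligase of mice, had -0.21 in HF and -0.29 in RT (adjusted p = 0.275 and 0.0761), and without NT 5 -0.09 and -0.17.

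The PARP and DTX3L group was the least raised in NT 5 among role groups with more than 1 tested member, and 2 of its 4 genes fell. Dtx3l, a ubiquitin ligase that works with Parp9, had 32.9, 38.6, 39.0, 35.0 and 36.9 CPM in NT 1 to NT 5. RT spanned 27.9 to 33.1 CPM with a median of 31.2, and HF 25.4 to 34.3 CPM with the same median to 3 digits. Only NT 1 fell inside the textured ranges, and NT 5 was the median of its group. Dtx3l fell by 0.27 ± 0.07 (SE) on the log2 scale in HF (edgeR adjusted p = 0.0234) and by 0.24 ± 0.07 in RT (adjusted p = 0.0348). Without NT 5 the changes were -0.26 and -0.23 (adjusted p = 0.0270 and 0.0444). The HF call ended without NT 2, NT 3, HF 3 or HF 4 (highest adjusted p = 0.0880) and with only those 2 groups in the fit (0.0575). The RT call ended without NT 2, NT 3, RT 1, RT 3, RT 4 or RT 6 (highest adjusted p = 0.119). Dtx3l and Parp9 overlap on opposite strands over 8% of the exonic bases of Dtx3l, and the libraries did not keep strand.

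Parp14, which attaches ADP-ribose to proteins, had 59.3, 54.6, 59.2, 54.3 and 59.5 CPM in NT 1 to NT 5. The lowest, median and highest RT libraries had 46.6, 49.0 and 52.2 CPM, and those of HF 47.3, 50.3 and 57.9 CPM. All RT libraries were below all NT libraries, and HF 1 alone of the HF libraries lay within NT. Parp14 fell by 14.7% in RT (log2 fold change -0.23 ± 0.05, SE, edgeR adjusted p = 0.00365, and 0.00619 without NT 5), a call that no left-out library ended. In HF the log2 fold change was -0.17 ± 0.05 (adjusted p = 0.0546, and 0.0695 without NT 5). It passed under 6 alternatives: upper-quartile scaling (0.0488), no filter (0.0338), DESeq2 (0.0339), the replicate block (0.0313), without NT 4 (0.0492) and without HF 1 (0.0120). Parp9 and Parp12 had values from -0.19 to -0.11, and from -0.11 to -0.04 without NT 5, and passed in neither comparison.

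Of the IFIT family, RNA-binding proteins that block translation of foreign transcripts, 0 of 3 passed. Ifit1 had 12.3, 10.97, 13.6, 9.999 and 41.2 CPM in NT 1 to NT 5. RT held 8.32, 9.39 and 11.2 CPM as lowest, median and highest, and HF 7.70, 10.2 and 13.1 CPM. The other 4 NT libraries lay in or just above the textured ranges. The log2 fold change in HF was -0.77 ± 0.33 (SE, edgeR adjusted p = 0.301) with NT 5 and -0.18 ± 0.12 (adjusted p = 0.495) without it, and in RT -0.88 and -0.29 (adjusted p = 0.177 and 0.162). Ifit3 was the member with the highest fold change in both comparisons, at 0.25 ± 0.11 (SE) in RT (adjusted p = 0.243) and 0.04 ± 0.11 in HF, and without NT 5 0.35 (adjusted p = 0.0619) and 0.14. It shares 31.7% of its windows with Ifit3b. Ifit2 was nearly level, at -0.07 in RT and -0.0017 in HF, and at -0.04 and 0.03 without NT 5.

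Mx2, a GTPase of the MX family that the annotation lists as a polymorphic pseudogene, had 1.67, 1.56, 1.93, 0.882 and 3.01 CPM in NT 1 to NT 5. RT libraries had 0.895 to 1.24 CPM around 1.01, and HF libraries 0.759 to 1.38 CPM around 1.12. All NT libraries but NT 4 were above all textured libraries. The log2 fold change was -0.77 ± 0.26 (SE) in HF and -0.80 ± 0.26 in RT (edgeR adjusted p = 0.120 and 0.0712), and -0.50 and -0.54 without NT 5 (0.353 and 0.263). Without NT 4 both passed (adjusted p = 0.0430 and 0.0229), and the RT value passed by DESeq2 (0.0481) and with the replicate block (0.0444). Cmpk2, a mitochondrial nucleotide kinase next to Rsad2 (viperin) in the genome, had 9.27, 9.68, 9.77, 8.59 and 10.54 CPM in NT 1 to NT 5. Its RT libraries ran from 8.47 over 9.35 to 10.54 CPM and its HF libraries from 7.996 over 9.61 to 11.2 CPM, so the groups overlapped fully. The log2 fold change was 0.0048 ± 0.09 (SE) in HF and -0.03 ± 0.09 in RT, and 0.04 and 0.0037 without NT 5.

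Sp100, a protein of PML nuclear bodies, was the member with the smallest p in both comparisons. NT 1 to NT 5 had 29.9, 30.3, 33.4, 33.1 and 39.3 CPM. The lowest, median and highest were 23.5, 26.2 and 29.2 CPM in RT and 24.05, 26.3 and 29.7 CPM in HF. Every textured library was below every NT library, NT 5 or not. Sp100 fell by 0.33 ± 0.07 (SE) on the log2 scale in RT (edgeR adjusted p = 0.00182) and by 0.32 ± 0.07 in HF (adjusted p = 0.00435). Without NT 5 the changes were -0.27 and -0.26 (adjusted p = 0.00719 and 0.0131), and no left-out library ended either call.

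**Figure D5:**
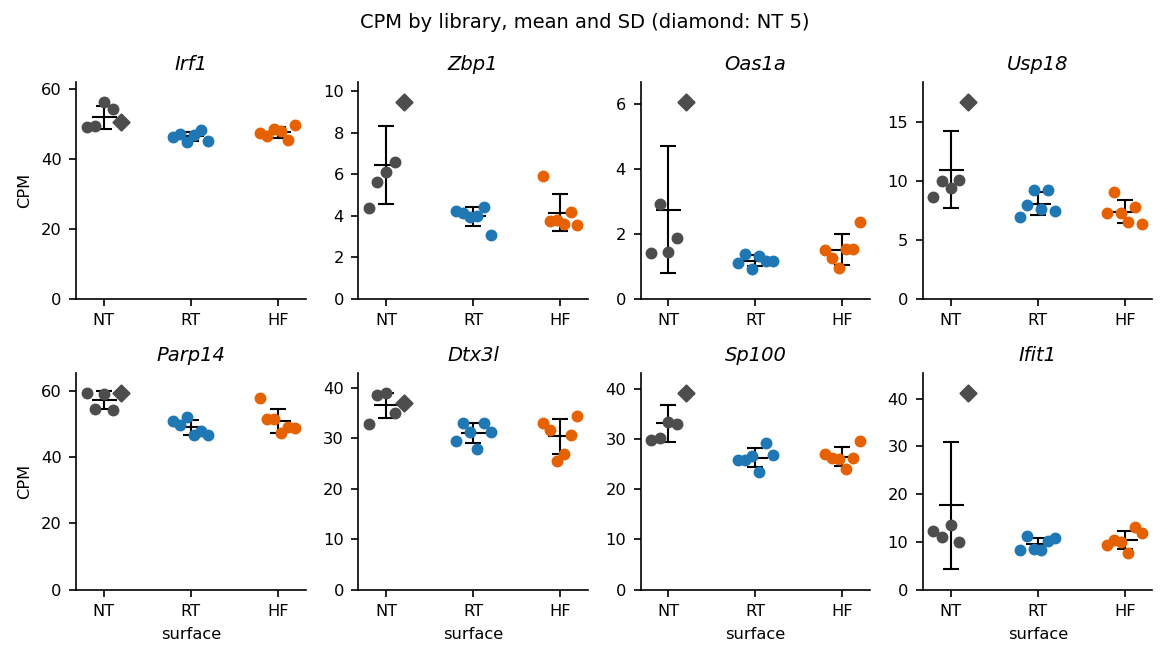
CPM by library for 8 members, with group mean and SD in black and NT 5 as a diamond; y axes start at 0 and differ between panels. NT 5 is far above the rest for Ifit1, Usp18 and Oas1a and close to other NT libraries for Irf1, Parp14 and Dtx3l.

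The other 8 effectors without a family passed in neither comparison with all libraries. Ifi44 had the most negative fold change of all members, -1.01 ± 0.43 (SE) in HF and -1.32 ± 0.43 in RT on the log2 scale (edgeR adjusted p = 0.275 and 0.111). Its level was 7.76 CPM in NT 5 and 0.629 to 2.12 CPM elsewhere, and without NT 5 the changes were -0.27 and -0.57. Xaf1, an antagonist of the apoptosis inhibitor XIAP, and Rtp4, a receptor chaperone, had 26.0 and 17.1 CPM in NT 5 and at most 13.4 and 8.53 CPM elsewhere. Lgals3bp, a secreted glycoprotein, was lower in every RT library than in any NT library (log2 fold change -0.25, adjusted p = 0.0775, and -0.15 without NT 5). Samd9l, an antiviral protein and the member with the most reads, averaged 220.3 ± 12.3 CPM in NT (SD, n = 5) and 203 ± 6.22 in RT (SD, n = 6), and had a log2 fold change of -0.12 (adjusted p = 0.0510, and 0.0401 without NT 5). Bst2 (tetherin), Ifi27 and Ifi35 had values from -0.22 to -0.05, and from -0.10 to 0.04 without NT 5, where Bst2 in HF and Ifi27 in both were above 0.

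Counted by library, Sp100 alone lay wholly below NT in HF, where 0.934% of all genes did. In RT this held for 6 members (Irf1, Oas1a, Oasl2, Parp14, Sp100 and Lgals3bp), beside 1.22% of all genes. By role, the lower members in HF were 0 of 4 factors, 1 of 6 sensors and 3 of 26 tested effectors. In RT they were 1 of 4, 1 of 6 and 4 of 26. With NT 5 left out these counts were 0, 0 and 4 in HF and 1, 1 and 5 in RT. Median log2 fold changes of factors, sensors and effectors were -0.23, -0.10 and -0.22 in HF and -0.21, -0.24 and -0.24 in RT. Without NT 5 they were -0.12, -0.06 and -0.10 in HF and -0.10, -0.05 and -0.13 in RT. The roles were not tested against each other.

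HF and RT were compared directly, which asks whether the fractal pattern differs from the round one and does not use the level of NT. Of 36 tested members 0 passed by edgeR, DESeq2 or limma voom, where 0.211% of all genes passed by edgeR. At an unadjusted p under 0.05 the count was 0 by edgeR, beside 8.00% of all genes. Log2 fold changes ran from -0.21 ± 0.10 (SE, Ifit3, adjusted p = 0.651) to 0.38 ± 0.32 (Oas1a, adjusted p = 0.847), with a median of 0.04 and 12 of 36 negative, beside 50.4% of all genes. Sp100 and Zbp1 differed between HF and RT by 0.01 ± 0.06 and 0.06 ± 0.16, and Dtx3l by -0.03 ± 0.06. The groups overlapped for all 36 members, where 0.520% of all genes lay wholly lower and 0.447% wholly higher in HF. With NT 5 left out of the fit, 3 members had an unadjusted p under 0.05 (Ifit2, Ifit3 and Lgals3bp), beside 9.41% of all genes, and 0 passed, beside 0.456%.

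Levels per kb of exon covered a wide range on every surface. Over all libraries the most abundant members were Ifit3 at 77.8 CPM per kb, Ifi27 at 52.1, Samd9l at 38.8, Bst2 at 29.9, Ifit2 at 23.9 and Lgals3bp at 23.6. The sensors ranged from 14.4 for Trim25 to 0.805 for Ddx60, and the factors from 12.2 for Irf1 to 1.51 for Irf7. Lowest among the tested were Ifi44 at 0.295, Oas2 at 0.325 and Mx2 at 0.353 CPM per kb. The untested Oasl1, Mx1 and Rsad2 were at 0.036, 0.0347 and 0.0859 CPM per kb.

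Of 81 other genes of the pathway 63 were tested. Reads of the ligands were almost absent. Of 10 interferon genes, 8 (Ifnb1, Ifna1, Ifna2, Ifna4, Ifna5, Ifnl2, Ifnl3 and Ifng) had no count in any library, and Ifnk and Ifne had 8 and 4 counts in all. NT 5 had 0 counts over the 10 ligands, which allows up to 3 counts, or 0.177 CPM, by counting error alone. The type I receptor was present on all surfaces, with Ifnar1 at 137 ± 4.00 CPM and Ifnar2 at 40.3 ± 2.45 CPM in NT (SD, n = 5), and neither passed in any comparison. Ifngr2, a chain of the interferon gamma receptor, rose in RT by 0.23 on the log2 scale (edgeR adjusted p = 0.0018, and 0.0056 without NT 5).

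The kinases Jak1, Jak2 and Tyk2 passed in no comparison, with log2 fold changes between -0.07 and 0.09 against NT. Of 6 tested inhibitors, Socs1 and Socs3 among them, 0 passed in either comparison with NT, nor did any of 10 tested genes of interferon induction such as Tbk1, Mavs and Irf3.

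Of 37 tested genes among 40 other interferon-stimulated genes, 2 fell in HF and 0 rose, and in RT 6 fell and 1 rose. Over all genes tested, 0.829% fell in HF, and in RT 1.44% fell and 2.53% rose. The genes of this list that fell in HF were Irgm1 (-0.16, adjusted p = 0.049) and Gvin1 (-0.23, adjusted p = 0.037), both GTPases. The Irgm1 call ended without NT 5 (adjusted p = 0.105), while Gvin1 (0.0387) and Gbp7 (0.0299) then passed. In RT they were Irgm1 (-0.16), Gvin1 (-0.23), Gbp7 (-0.25), a guanylate-binding protein, Uba7 (-0.22), which activates ISG15, Ifi203 (-0.52) and Apol9a (-0.61). The edgeR adjusted p of these 6 in RT lay between 0.011 and 0.044. Cxcl10, a chemokine, rose in RT. Its mean was 1.63 ± 0.37 CPM in NT (SD, n = 5) and 2.59 ± 0.27 CPM in RT (SD, n = 6), a difference of 0.67 on the log2 scale (adjusted p = 0.037). Without NT 5, Gvin1, Gbp7 and Cxcl10 kept their RT calls, and Irgm1, Uba7, Ifi203 and Apol9a had adjusted p between 0.061 and 0.095. Ly6e (0.21), Znfx1 (-0.17) and Igtp (-0.26) then passed as well (adjusted p = 0.034, 0.011 and 0.044). Almost all of Gvin1, 97.8% of its windows, is shared with other genes. NT 5 was the highest library in 21 of these 37 genes, beside 12.5% of all tested genes.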

How the data were processed

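Polyadenylated RNA of 17 samples was sequenced in pairs from libraries that did not keep strand, per the labels' protocols. The deposited table gives whole-number counts for each Ensembl gene in each library, with no normalization. The submitters' processing notes name CASAVA, HISAT2 2.0.5, featureCounts 1.5.0-p3 and the build GRCm39, without stating what each did, and the annotation release is not given in the sources used here. Symbols, exon lengths, overlaps and shared 100-base windows came from GENCODE M21 on GRCm38. Sting1 was matched under its older symbol, and counts of genes without a symbol were 0.580% of all. Genes were kept by filterByExpr (minimum count 10), and cutoffs, TMM scaling and two-sided quasi-likelihood F tests came from edgeR 4.0.16 in R 4.3.3, with 1 mean per group over all 17 libraries. P-values were adjusted by Benjamini-Hochberg over 15196 genes at 0.05. Standard errors are the fold change over the square root of F. Library levels used log2 CPM with a prior count of 2. Alternatives were DESeq2 1.42.0, limma 3.58.1 with voom, RLE and upper-quartile scaling, no filter, the 2 groups alone, a replicate block and each library left out. No 2 libraries were identical. The test was also run on simulated counts with known changes. They held no outlying library, so the run cannot show how the test treats one.

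The members, lists, roles and rule for named genes were chosen with earlier results of these data known. Every NT value, and the lowest, median and highest of RT and HF, are given for members past the threshold in any comparison of all libraries and for the member with the smallest p in HF against NT of each role group; the remaining names were picked with their values in view, except pathway genes past the threshold. Some items are not reported here.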

Additional observations from a re-analysis of the deposited data

Results flagged for a closer look

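In groups of 5 or 6, a library was singled out when its gap to the nearest other, divided by the range of the group, passed Dixon's 95% critical value. By chance this happens in about 1 of 20 groups. NT 5 was far above the other NT libraries in the mean level of the 36 members (0.726), in Irf9 (0.740), in Usp18 (0.763) and in Ifit1 (0.785). Zbp1 had RT 6 far below the other RT libraries (0.663) and HF 1 far above the other HF libraries (0.678). Over all 36 tested members this occurred for 7 genes in NT, each time with NT 5 high, for 3 in RT and for 2 in HF. Only the members described library by library are listed with values.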

How the results depend on the processing

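With all libraries, 354 genes passed in HF against NT, 603 in RT against NT and 32 in HF against RT. In HF against NT the genes past the threshold and the lower members were 597 and 9 with no filter beyond 1 count, 564 and 7 by DESeq2, 200 and 1 when fitted on those 2 groups alone, and 637 and 8 with the replicate number as a block. In RT against NT they were 822 and 13 with no filter, 835 and 14 by DESeq2, and 995 and 17 with the block. HF against RT passed 148 genes with no filter, 84 by DESeq2, 113 fitted on those 2 groups alone and 125 with the block. Leaving out each library in turn gave 202 to 604 genes and 1 to 7 lower members in HF against NT. It gave 365 to 806 genes and 3 to 15 lower members in RT against NT, and 14 to 89 genes in HF against RT. For genes in both comparisons with NT the lowest count came without NT 3 and the highest without NT 5. For HF against RT the lowest came without RT 1 or RT 3 and the highest without HF 3. The cause was not tested.

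Cmpk2, near 0 in both comparisons, changed sign. In HF against NT its log2 fold change was -0.00017 with upper-quartile scaling, -0.0174 with the replicate block and -0.0434 to 0.0526 with a library left out, and in RT against NT -0.0728 to 0.0037 with a library left out. Over 26 gene results and 624 alternatives, 557 kept direction and side of the threshold, 29 lost the threshold, 32 gained it and 6 changed direction. Each gene's group mean was first subtracted from log2 CPM, so only deviations within a group were correlated. On these deviations, same-numbered libraries correlated at 0.0067 to 0.193 in RT against NT and at 0.0069 to 0.0865 in HF against NT. In HF against RT the range was -0.011 to 0.0745. The labels do not state pairs, so the main fit did not pair the numbers. More genes passed in every comparison with the number as a block. Whether libraries of the same number share an origin was not tested. Among the 5, 5 and 6 libraries of the other group, a library correlated best with its own number in 2 of 5, 3 of 5 and 2 of 6 cases. The 2 highest correlations were those of RT 1 with NT 1 (0.193) and RT 5 with NT 5 (0.137).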
